A study of Mus musculus with 6 samples.

Results

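The genes described here are the components of transforming growth factor beta (TGF-beta) and bone morphogenetic protein (BMP) signalling in mouse tumour organoids. They were taken by symbol: the Bmp, Bmpr, Smad, Tgfb, Acvr, Inhb, Ltbp and Id1 to Id4 genes, plus Nog, Grem1, Fst, Ski and Skil. These symbols matched 55 of the 23224 genes in the deposited table. RNA was sequenced in 3 libraries labelled SOX17KO, from AKP organoids in which SOX17 was deleted with CRISPR-Cas9, and in 3 libraries labelled Control, from AKP organoids that the labels describe no further. Both groups came from organoids derived from tumours grown in vivo, and the labels spell out neither the AKP alleles nor a strain or age. Whether the 3 libraries of each group are separate cultures, clones or animals is not labelled, and p-values here measure only the spread between these samples. The comparison addresses what the loss of SOX17, an endoderm transcription factor, does in colon cancer cells.

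Ligands of this family bind a type II receptor, which recruits and phosphorylates a type I receptor, and that receptor phosphorylates Smad proteins. TGF-beta and activin ligands act mainly through Smad2 and Smad3 and BMP ligands through Smad1, Smad5 and Smad9, and both sets enter the nucleus with the shared partner Smad4. In the intestine BMP signalling restrains crypt stem cells, while stromal cells near the crypt base secrete BMP antagonists such as gremlin and noggin. TGF-beta signalling restrains epithelial growth, and colorectal cancers often lose it through mutations of TGFBR2 or SMAD4.

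Totals were 24765258, 23411787 and 18290912 counts in the libraries labelled SOX17KO and 27503254, 21238718 and 26466544 in Control. Sox17 RNA was at 33.8, 41.9 and 45.1 CPM, counts scaled to a common library size, in the libraries labelled SOX17KO and at 34.4, 34.5 and 34.2 CPM in Control, so its level does not check the labels; when SOX17KO replicate 1 was left out, Sox17 was called higher, at 0.34 on the log2 scale (edgeR adjusted p = 0.0113). SOX17KO replicate 1 stood apart: its correlation of log2(CPM + 1) with SOX17KO replicates 2 and 3 was 0.968 and 0.970, against 0.991 between those. Calls of members that change when it is left out are given both ways, and those of the wider gene lists mainly as counts. All 9 epithelial markers were detected, and their summed level was 10049, 14275 and 14209 CPM in SOX17KO against 13584 to 14386 CPM in Control. Most of that sum was from the keratin genes Krt8, Krt18 and Krt19, while Epcam was at 678, 675 and 675 CPM in SOX17KO and 542, 532 and 523 CPM in Control. Epcam and Cldn7 were called higher (edgeR adjusted p = 0.0343 and 0.0223). Cldn3, in the shifted stretch of chromosome 5 described below, was called lower (edgeR adjusted p = 0.00136), and the others were not called. The 10 fibroblast and mesenchymal markers together came to 0.992, 0.834 and 0.554 CPM in SOX17KO against 0.181, 0.144 and 0.266 CPM in Control, and 4 of them, Col3a1, Dcn, Lum and Thy1, were at 0 in every library; the part of that difference in the values below was not tested. In bulk RNA, fewer cells of a type and less RNA per cell cannot be told apart. The 5 endothelial markers summed to at most 0.878 CPM in any library. Of the immune markers, Cd3e was at 0 in every library and most counts were from Cd68, at 4.66, 11.7 and 13.3 CPM in SOX17KO and 10.7, 8.51 and 7.99 CPM in Control.

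Of the 55 members, 32 had enough counts to be tested, and 3 of these rose in the libraries labelled SOX17KO: Fst, Smad1 and Tgfb3. No member fell, and 29 did not pass the test, edgeR's quasi-likelihood F test with Benjamini-Hochberg adjustment over all 12137 genes tested, with genes called at an adjusted p below 0.05. Over all tested genes 6.87% were called, 3.67% higher and 3.2% lower, against 9.38% of the tested members. At an unadjusted edgeR p below 0.05 there were 7 members higher and 2 lower, or 28.1% of those tested, against 20.3% of all genes (10.6% higher and 9.74% lower). DESeq2 called 5 members higher and 1 lower, where it called 11.7% of all genes (6.17% higher and 5.58% lower), and limma-voom called 2 higher and 0 lower, where it called 6.25% (2.99% higher and 3.25% lower). The groups did not overlap for 11 of the 32 members, 8 with all SOX17KO libraries above and 3 with all below, or 34.4% against 28.2% of all tested genes (14% above and 14.2% below). The median log2 fold change, SOX17KO over Control, was 0.09 over the tested members and 0.01 over all tested genes. The share of members called was thus near that over all genes.

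Without SOX17KO replicate 1, 8 of 31 tested members were called higher and 2 lower, where 22.2% of all genes were called, 11.9% higher and 10.3% lower. The 8 were Fst, Smad1, Tgfb3, Bmp3, Bmp8b, Ltbp4, Smad4 and Tgfb1, and the 2 were Id1 and Smad7. Without SOX17KO replicate 2 or 3 there were 4 and 3 members called, with 6.16% and 5.49% of all genes. The 4 include Bmp4, which passed the filter there only through the SOX17KO libraries, where it was high. Without Control replicate 1, 2 or 3 there were 1, 2 and 1, with 1.6%, 1.56% and 1.64% of all genes.

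Of the 55 members, 40 had a transcription start in the RefSeq promoter table on the build GRCm38.p6, and among the called members only Smad1 did. Its upstream sequence is shown because Smad1 is the called signal transducer, and that of Id2 because the Id genes are known direct BMP targets and Id2 differed widely between SOX17KO libraries. Both are printed on the minus strand, 5′ to 3′, from 250 bases before the RefSeq start up to the first annotated exon, as 160 bases at chr8:79399519-79399678 for Smad1 and 89 bases at chr12:25096254-25096342 for Id2.
Smad1: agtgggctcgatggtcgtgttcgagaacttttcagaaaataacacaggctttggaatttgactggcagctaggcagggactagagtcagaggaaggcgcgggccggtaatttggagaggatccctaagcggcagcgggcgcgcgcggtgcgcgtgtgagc
Id2: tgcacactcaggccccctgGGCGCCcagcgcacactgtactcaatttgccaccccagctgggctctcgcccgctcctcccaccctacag
Capitals mark a match to any of the motifs searched on both strands: CAGAC or its complement GTCTG, the short Smad element; GGCGCC, a GC-rich element that BMP-activated Smads are known to bind; and ACAAT or its complement ATTGT, the core that Sox factors bind. Id2 held 1 GGCGCC, starting 231 bases before the RefSeq start, and neither stretch held another match. In the windows of the same 89 positions before 27025 genes, 2.70% held GGCGCC, 17.5% the Smad element and 11.8% the Sox core. Over the 160 positions of the Smad1 stretch these shares were 5.24%, 30.2% and 20.1%. These matches describe letters only.

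Among the ligands, Tgfb3, which encodes TGF-beta 3, measured 3.55, 11.1 and 4.77 CPM in SOX17KO against 1.23, 1.48 and 1.22 CPM in Control. All 3 SOX17KO libraries lay above every Control library, with replicate 2 highest. Its mean was 6.47 ± 4.06 CPM in SOX17KO and 1.31 ± 0.150 CPM in Control (SD, n = 3 each), and it rose 4.94-fold, or 2.30 ± 0.45 on the log2 scale (SE; edgeR adjusted p = 0.0284). Its value was 1.66 when SOX17KO replicate 2 was left out (edgeR adjusted p = 0.0178), and Tgfb3 was not called without Control replicate 1, 2 or 3 (edgeR adjusted p = 0.147, 0.116 and 0.143) or with limma-voom (adjusted p = 0.0711). On chromosome 12 Tgfb3 lies 2 tested genes before Angel1, where a stretch of 132 tested genes up to Crip1 had a median log2 fold change of 0.46 with 51 called higher. The 5 nearest tested genes on each side of Tgfb3 had a median log2 fold change of 0.10. Of these 1, the adjacent Ttll5, was called higher, at 0.63 (edgeR adjusted p = 0.0104). After Tgfb3, Angel1, Pomt2 and Gstz1 were at 0.39, 0.42 and 0.50, and Gm805 and Tmem63c at -0.53 and -1.14, none of them called. The part of the shift of that stretch in the Tgfb3 value was not tested.

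Tgfb1, the TGF-beta ligand most often studied in epithelia, was at 27.9, 46.3 and 39.5 CPM in SOX17KO and 36.9, 32.7 and 34.2 CPM in Control. The groups overlapped, and its log2 fold change of 0.13 had a 95% interval of -0.29 to 0.55 (edgeR adjusted p = 0.779). Leaving out SOX17KO replicate 1, the lowest library, brought the value to 0.31, and Tgfb1 was then called higher (edgeR adjusted p = 0.0402). Tgfb2 had 41 counts in SOX17KO replicate 1 and 4 and 7 in the other two, against 2, 2 and 7 in Control, and did not pass the filter.

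Bmp3, which encodes an atypical BMP that opposes other BMPs, was at 18.7, 48.3 and 40.9 CPM in SOX17KO and 16.6, 16.0 and 18.8 CPM in Control. SOX17KO replicate 1 lay within the Control range and replicates 2 and 3 well above it. Its log2 fold change was 1.07 ± 0.32 (SE; edgeR adjusted p = 0.106). When SOX17KO replicate 1 was left out it was 1.38 and Bmp3 was called higher (edgeR adjusted p = 1.57e-05), as it was with DESeq2 (adjusted p = 0.00947).

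Bmp8b, another BMP ligand gene, was likewise lowest in replicate 1 among the SOX17KO libraries, there below all Control libraries, with 68.7, 99.9 and 95.9 CPM in SOX17KO against 74.0, 73.3 and 73.4 CPM in Control (edgeR adjusted p = 0.378, and 0.00183 at 0.41 on the log2 scale when SOX17KO replicate 1 was left out). Its neighbour Bmp8a was at 0.954 to 1.40 CPM in SOX17KO and 1.18 to 1.63 CPM in Control (edgeR adjusted p = 0.718). Bmp8a and Bmp8b are paralogs, and whether the counting divided shared reads between them was not tested. Bmp2, an epithelial BMP, was at 6.79, 5.66 and 8.42 CPM in SOX17KO and 7.42, 7.08 and 6.05 CPM in Control, with overlapping groups and a 95% interval of the log2 fold change from -0.42 to 0.47 (edgeR adjusted p = 0.972).

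Other ligands were barely detected. Bmp4, the main BMP of the gut stroma, had 57.1 counts in SOX17KO replicate 1 and 5 and 12 in replicates 2 and 3, against 3, 2 and 5 in Control. It did not pass the filter with all 6 libraries. Without SOX17KO replicate 2 it was tested and called higher, at 3.40 on the log2 scale (edgeR adjusted p = 0.0386). It passed the filter there only through SOX17KO replicates 1 and 3, where it was high, so the call is no support for a rise. The value rests largely on SOX17KO replicate 1. Inhba, the activin A subunit gene, had 28, 5 and 1 counts in SOX17KO and 10, 7 and 3 in Control, so that SOX17KO replicate 1 was highest and replicate 3 lowest. Bmp6 had at most 10 counts in any library, Bmp7 at most 4, and Bmp15, Inhbb and Inhbe at most 2. Bmp5, Bmp10 and Inhbc had 0 in all 6, which allows up to 0.109 to 0.166 CPM per library (3 counts, counting error only).

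**Figure D1:**
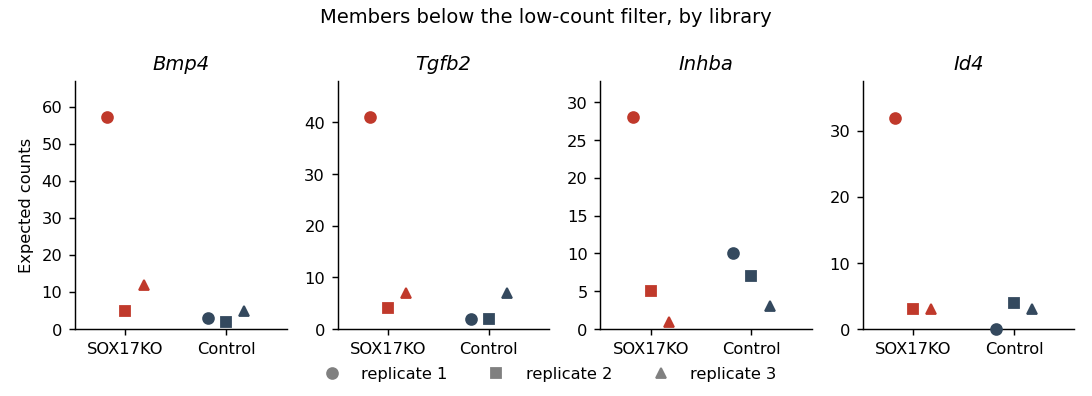
Expected counts (y axis, from 0) of Bmp4, Tgfb2, Inhba and Id4 in the 3 libraries labelled SOX17KO and the 3 Control libraries, 1 point a library, with the replicate number shown by the symbol. SOX17KO replicate 1 is the highest library for each gene, with 57.1, 41, 28 and 32 counts, and no other library exceeds 12.

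The 23 members below the filter summed to 198.1 counts in SOX17KO replicate 1, against 46.1 and 49.0 in SOX17KO replicates 2 and 3 and 36.8 to 51.0 in Control. That library was the single highest for 8 of the 23, and for 11 of the 32 tested members it was the highest and for 8 the lowest.

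Among proteins that hold or release ligands outside the cell, Ltbp4, which tethers latent TGF-beta in the matrix, was at 2.60, 3.07 and 4.82 CPM in SOX17KO and 1.48, 1.82 and 1.41 CPM in Control. The groups did not overlap, and its log2 fold change was 1.15 ± 0.29 (SE; edgeR adjusted p = 0.0647). It was called higher by DESeq2 (adjusted p = 0.0200) and, with a value of 1.32, without SOX17KO replicate 1 (edgeR adjusted p = 0.00456). Ltbp3, another latent TGF-beta binding protein gene, was at 15.7, 45.2 and 57.0 CPM in SOX17KO and 66.1, 55.8 and 47.0 CPM in Control. SOX17KO replicate 1 was far below all other libraries, and the log2 fold change of -0.52 had a 95% interval of -1.50 to 0.46 (edgeR adjusted p = 0.575). Its value was -0.15 when that library was left out (edgeR adjusted p = 0.517). Ltbp1 and Ltbp2 had at most 6 counts in any library. Bmp1, which despite its name encodes a protease that cleaves procollagen and the BMP antagonist chordin, was at 1.72, 0.658 and 0.333 CPM in SOX17KO and 0.326, 0.383 and 0.418 CPM in Control (edgeR adjusted p = 0.285).

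Fst, which encodes follistatin, a secreted protein that binds and neutralises activins, showed the most stable difference of the members. It was at 7.79, 7.51 and 9.59 CPM in SOX17KO and 1.52, 1.48 and 2.02 CPM in Control. Every SOX17KO library stood well clear of every Control library. Its mean was 8.29 ± 1.13 CPM in SOX17KO and 1.67 ± 0.298 CPM in Control (SD, n = 3 each), and it rose 4.93-fold, or 2.30 ± 0.21 on the log2 scale (SE; edgeR adjusted p = 0.00164). It was called under all 14 alternatives, with log2 fold changes of 2.19 to 2.45 and adjusted p-values of 2.4e-16 to 0.0216. The 5 nearest tested genes on each side on chromosome 13 had a median log2 fold change of 0.14. Of these Gpx8 was called higher, at 2.41 (edgeR adjusted p = 0.00543), and the others were not called. The BMP antagonist genes noggin and gremlin 1 were close to absent: Nog had 2, 1 and 2 counts in SOX17KO and 0 in each Control library, and Grem1 had 0 counts in SOX17KO and 1 count over the Control libraries.

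**Figure D2:**
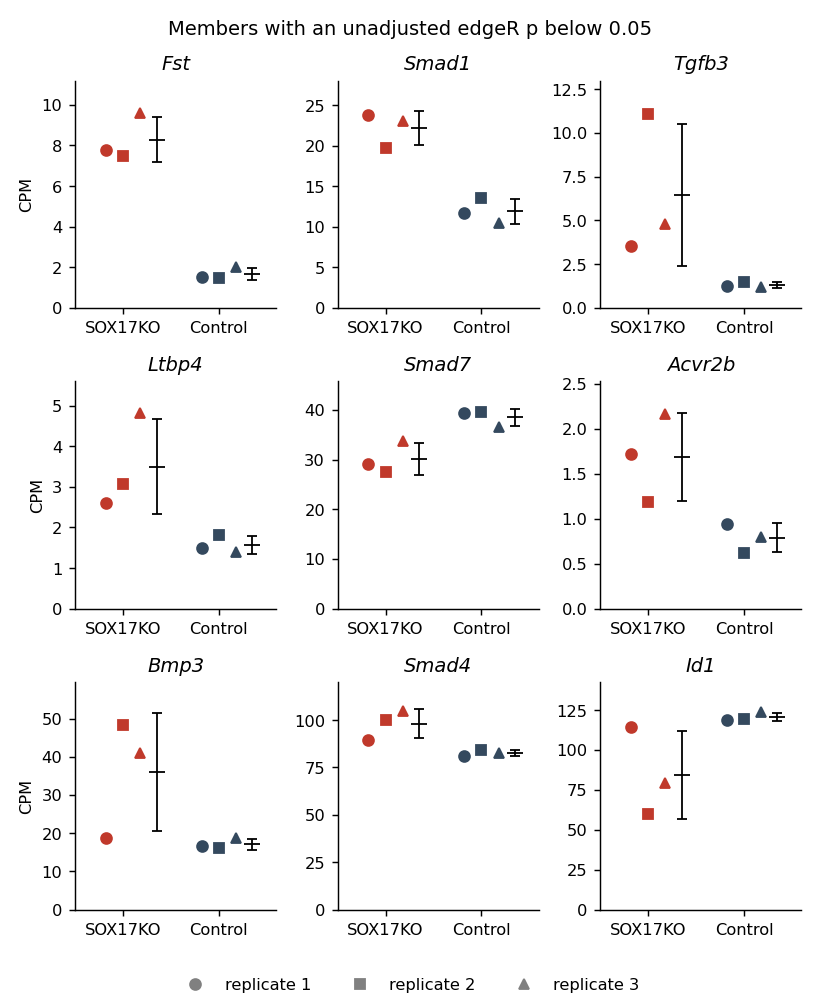
CPM (y axes, from 0) of the 9 members with an unadjusted edgeR p below 0.05, in the libraries labelled SOX17KO and in Control. Points are libraries, with the replicate number shown by the symbol, and bars give the mean and SD of 3 libraries; Fst, Smad1 and Tgfb3 are the 3 called members, and for Bmp3 and Id1 the point of SOX17KO replicate 1 lies close to Control.

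Of the 12 receptor genes 8 were tested, and none was called. Tgfbr2, the type II receptor of TGF-beta, was at 274, 196 and 207 CPM in SOX17KO and 239, 227 and 206 CPM in Control. The groups overlapped, with the lowest and the highest value both in SOX17KO, and the log2 fold change of 0.01 had a 95% interval of -0.32 to 0.34 (edgeR adjusted p = 0.980). Tgfbr1, its type I partner, was at 32.4, 22.4 and 31.1 CPM in SOX17KO and 25.5, 29.6 and 28.0 CPM in Control, again overlapping, with an interval of -0.31 to 0.41 around 0.05 on the log2 scale (edgeR adjusted p = 0.919).

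Of the BMP receptors, the type I receptor gene Bmpr1a was at 125, 122 and 120.1 CPM in SOX17KO and 103, 113 and 114 CPM in Control. All SOX17KO libraries lay above Control, by little: the log2 fold change was 0.15 ± 0.07 (SE; edgeR adjusted p = 0.323). The type II receptor gene Bmpr2 was at 19.7, 23.7 and 29.7 CPM in SOX17KO and 28.9, 25.9 and 26.3 CPM in Control (edgeR adjusted p = 0.686). Acvr1, a type I receptor used by BMPs, was at 22.1, 27.4 and 38.5 CPM in SOX17KO and 29.3, 28.5 and 26.6 CPM in Control (edgeR adjusted p = 0.925). For both genes SOX17KO replicate 1 was the lowest library and replicate 3 the highest.

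Activin receptors followed a similar picture. Acvr1b, the type I receptor of activin, was at 37.9, 45.3 and 52.5 CPM in SOX17KO and 46.0, 40.2 and 36.0 CPM in Control (edgeR adjusted p = 0.663). Acvr2a, a type II receptor, was at 27.2, 25.3 and 33.6 CPM in SOX17KO and 26.1, 28.3 and 24.1 CPM in Control (edgeR adjusted p = 0.677). The groups overlapped for both. Acvr2b, the other type II receptor of activins, was at 1.72, 1.19 and 2.16 CPM in SOX17KO and 0.941, 0.622 and 0.799 CPM in Control. Here the groups did not overlap, on 45, 27 and 39 counts in SOX17KO and 26, 13 and 21 in Control, and the difference of 1.08 ± 0.31 on the log2 scale (SE) missed the threshold (edgeR adjusted p = 0.0995). The co-receptor gene Tgfbr3 had 10, 4 and 3 counts in SOX17KO and 1, 0 and 0 in Control, and Acvr1c and Bmpr1b had 1 count each over all libraries. Acvrl1 had 2 to 6 counts in SOX17KO libraries and 7 to 11 in Control. Scaled to library size its groups overlapped, at 0.277 CPM in SOX17KO replicate 3 against 0.266 CPM in Control replicate 3.

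Levels of different receptors were compared as CPM per kilobase, using exon lengths of the GENCODE M21 annotation, which is of a later build than the one the authors used. On that scale Tgfbr2 was at 27.6 ± 5.14 in SOX17KO and 27.4 ± 2.05 in Control, and Bmpr1a at 19.3 ± 0.426 in SOX17KO and 17.4 ± 0.933 in Control (SD, n = 3 each). Acvr1b came next, at 10.2 ± 1.65 in SOX17KO and 9.21 ± 1.14 in Control. Acvr1, Acvr2a and Tgfbr1 followed at means of 6.08, 5.05 and 4.38 CPM per kilobase in SOX17KO and 5.83, 4.61 and 4.24 in Control. In SOX17KO the ranges of these 3 overlapped, and in Control those of Acvr2a and Tgfbr1 did. The lowest tested receptors were Bmpr2, at 1.10 to 1.65 in SOX17KO and 1.44 to 1.61 in Control, and Acvr2b, at means of 0.430 in SOX17KO and 0.200 in Control.

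Smad1, a receptor-regulated Smad of BMP signalling, was at 23.7, 19.8 and 23.1 CPM in SOX17KO and 11.7, 13.6 and 10.5 CPM in Control. The groups did not overlap. Its mean was 22.2 ± 2.15 CPM in SOX17KO and 11.9 ± 1.57 CPM in Control (SD, n = 3 each), and it rose 1.87-fold, or 0.90 ± 0.14 on the log2 scale (SE; edgeR adjusted p = 0.0112). It was called without each SOX17KO library in turn and with DESeq2 and limma-voom, and missed the threshold without Control replicate 1 or 3 (edgeR adjusted p = 0.0813 and 0.0693). None of its 5 nearest tested genes on each side on chromosome 8 was called by edgeR, and their median log2 fold change was -0.00.

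Smad5, its close relative with the same role, was at 56.6, 46.2 and 54.8 CPM in SOX17KO and 54.0, 55.7 and 49.5 CPM in Control. The groups overlapped, and the log2 fold change of -0.01 had a 95% interval of -0.26 to 0.23 (edgeR adjusted p = 0.964). Smad9, the third of that set, had 5, 4.11 and 1 counts in SOX17KO and 2, 0 and 0 in Control and was not tested.

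The Smads of TGF-beta and activin signalling were close between groups. Smad2 was at 66.1, 58.2 and 64.3 CPM in SOX17KO and 64.6, 64.2 and 62.9 CPM in Control, with a 95% interval of the log2 fold change from -0.21 to 0.16 (edgeR adjusted p = 0.925). Smad3 was at 113, 142 and 152 CPM in SOX17KO and 146, 139 and 138 CPM in Control, with an interval of -0.34 to 0.22 (edgeR adjusted p = 0.853). In SOX17KO the lowest Smad3 value was that of replicate 1, below all Control libraries.

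Smad4, the shared partner, was at 89.7, 100.3 and 105 CPM in SOX17KO and 81.1, 84.3 and 82.6 CPM in Control. All SOX17KO libraries lay above Control, with a log2 fold change of 0.25 ± 0.08 (SE; edgeR adjusted p = 0.140), and Smad4 was called higher without SOX17KO replicate 1 at 0.31 (edgeR adjusted p = 0.00943). Smad7, which blocks type I receptors and is itself induced by TGF-beta, was at 29.1, 27.5 and 33.8 CPM in SOX17KO and 39.3, 39.6 and 36.5 CPM in Control. All SOX17KO libraries lay below Control, and the difference of -0.35 ± 0.10 on the log2 scale (SE) missed the threshold (edgeR adjusted p = 0.0982). It was called lower by DESeq2 (adjusted p = 0.0440) and without SOX17KO replicate 1 (edgeR adjusted p = 0.0402). Smad6, the inhibitor of BMP signalling, was at 0.992, 0.483 and 0.887 CPM in SOX17KO and 0.507, 0.431 and 0.495 CPM in Control (edgeR adjusted p = 0.331).

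Per kilobase, Smad4 and Smad3 were highest, at 26.5 ± 2.07 and 24.4 ± 3.67 CPM per kilobase in SOX17KO and 22.3 ± 0.426 and 25.5 ± 0.801 in Control (SD, n = 3 each). Smad2, Smad5 and Smad7 were at 7.16, 7.08 and 6.66 in SOX17KO and 7.28, 7.15 and 8.51 in Control. Smad1 was at 3.55 ± 0.343 in SOX17KO and 1.90 ± 0.251 in Control, below Smad5 in both groups.

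Ski and Skil encode corepressors that bind Smads in the nucleus. Ski was at 71.5, 82.6 and 81.7 CPM in SOX17KO and 90.2, 85.6 and 87.0 CPM in Control, with all SOX17KO libraries below Control and a log2 fold change of -0.16 ± 0.08 (SE; edgeR adjusted p = 0.367). Skil was at 46.0, 49.0 and 59.9 CPM in SOX17KO and 51.3, 54.8 and 45.9 CPM in Control, with overlapping groups (edgeR adjusted p = 0.947).

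**Figure D3:**
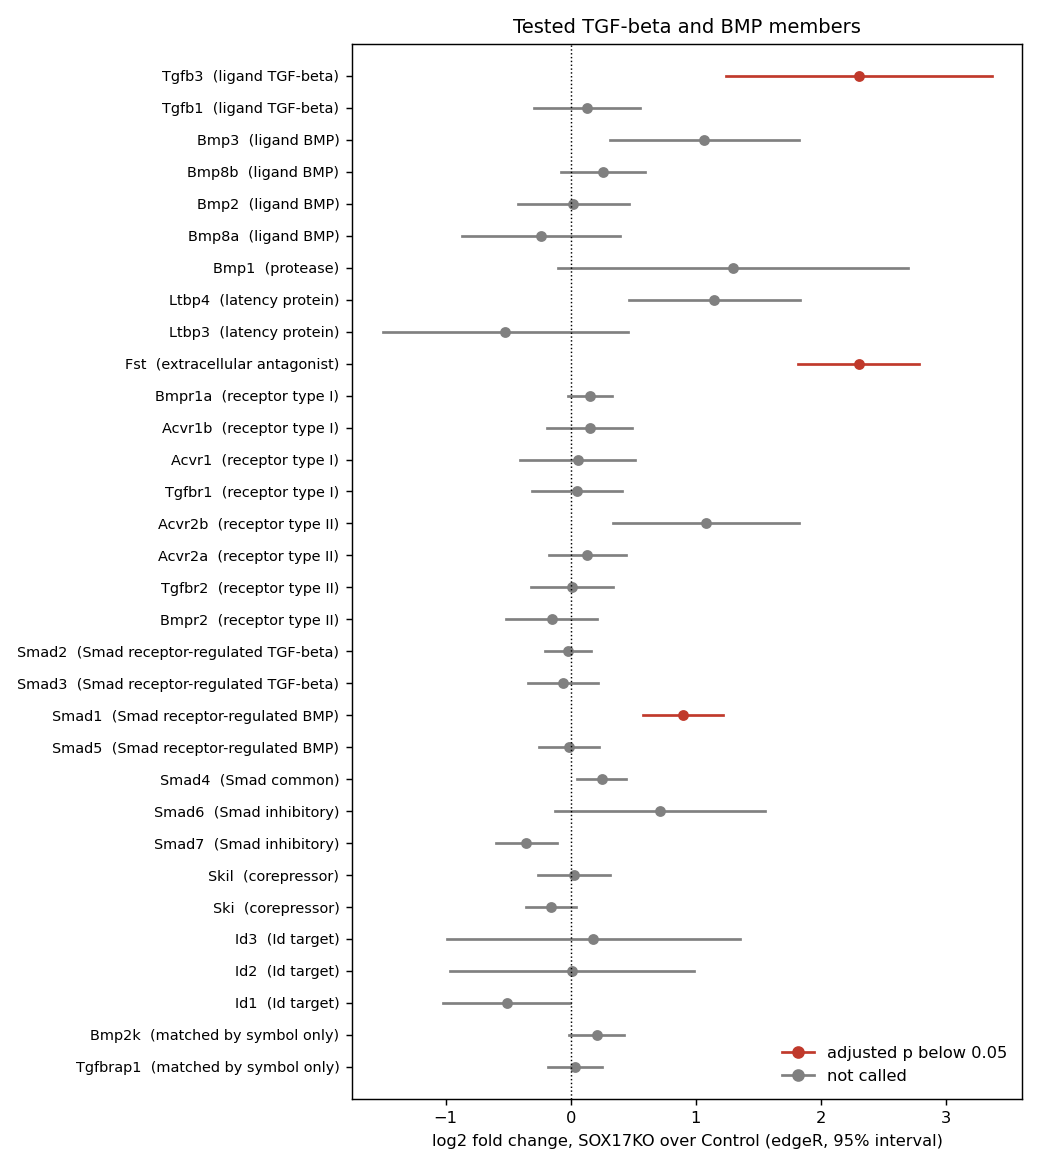
Log2 fold change, SOX17KO over Control, of the 32 tested members (x axis) with its 95% interval from edgeR, ordered by role down the page. Red marks the 3 members called at an adjusted p below 0.05, Tgfb3 at 2.30, Fst at 2.30 and Smad1 at 0.90, and the receptors other than Acvr2b lie between -0.15 and 0.15.

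Id1, Id2 and Id3, inhibitors of basic helix-loop-helix factors and direct targets of BMP signalling, differed more among the libraries labelled SOX17KO than among Control. Id1 was at 114, 59.6 and 79.4 CPM in SOX17KO and 119, 119.6 and 124 CPM in Control. All SOX17KO libraries lay below Control, replicate 1 only just, and the log2 fold change was -0.51 ± 0.22 (SE; edgeR adjusted p = 0.241). Without SOX17KO replicate 1 it was -0.80 and Id1 was called lower (edgeR adjusted p = 0.00064).

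Id2 was at 63.3, 16.9 and 51.6 CPM in SOX17KO and 41.3, 45.8 and 43.9 CPM in Control. Replicates 1 and 3 of SOX17KO lay above all Control libraries and replicate 2 far below. The means were 43.9 ± 24.1 CPM in SOX17KO and 43.7 ± 2.26 CPM in Control (SD, n = 3 each; edgeR adjusted p = 0.995). Id3 was at 42.0, 8.03 and 23.6 CPM in SOX17KO and 20.2, 22.3 and 22.6 CPM in Control, in the same order of SOX17KO libraries as Id2, with means of 24.5 ± 17.0 CPM in SOX17KO and 21.7 ± 1.31 CPM in Control (SD, n = 3 each; edgeR adjusted p = 0.901). The 95% intervals of their log2 fold changes were wide, -0.97 to 0.98 for Id2 and -0.99 to 1.35 for Id3, and with SOX17KO replicate 1 left out the values were -0.37 for Id2 and -0.48 for Id3 (edgeR adjusted p = 0.474 and 0.326). SOX17KO replicate 2 was the lowest of the 6 libraries for Id1, Id2 and Id3. Id4 had 32, 3 and 3 counts in SOX17KO and 0, 4 and 3 in Control.

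**Figure D4:**
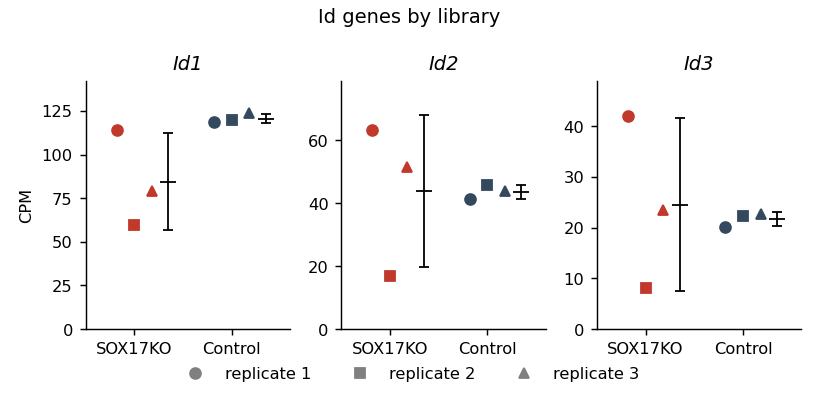
CPM (y axes, from 0) of Id1, Id2 and Id3 by library, with the replicate number shown by the symbol and the mean and SD of 3 libraries beside the points. The Control libraries lie close together, while SOX17KO replicate 2 is lowest for all 3 genes, at 59.6, 16.9 and 8.03 CPM.

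Matched by symbol only, Bmp2k, a kinase of clathrin-coated vesicles first found as BMP2-inducible, was at 27.0, 26.9 and 29.8 CPM in SOX17KO and 25.0, 25.0 and 22.6 CPM in Control (edgeR adjusted p = 0.276), and Tgfbrap1, a receptor-associated adaptor of endosome tethering, at 36.5 to 43.5 CPM in SOX17KO and 38.0 to 40.3 CPM in Control (edgeR adjusted p = 0.898). Tgfbi, a secreted matrix protein gene named for its induction by TGF-beta, had at most 5 counts in any library, and Tgfb1i1, a focal adhesion adaptor gene, at most 3.

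**Figure D5:**
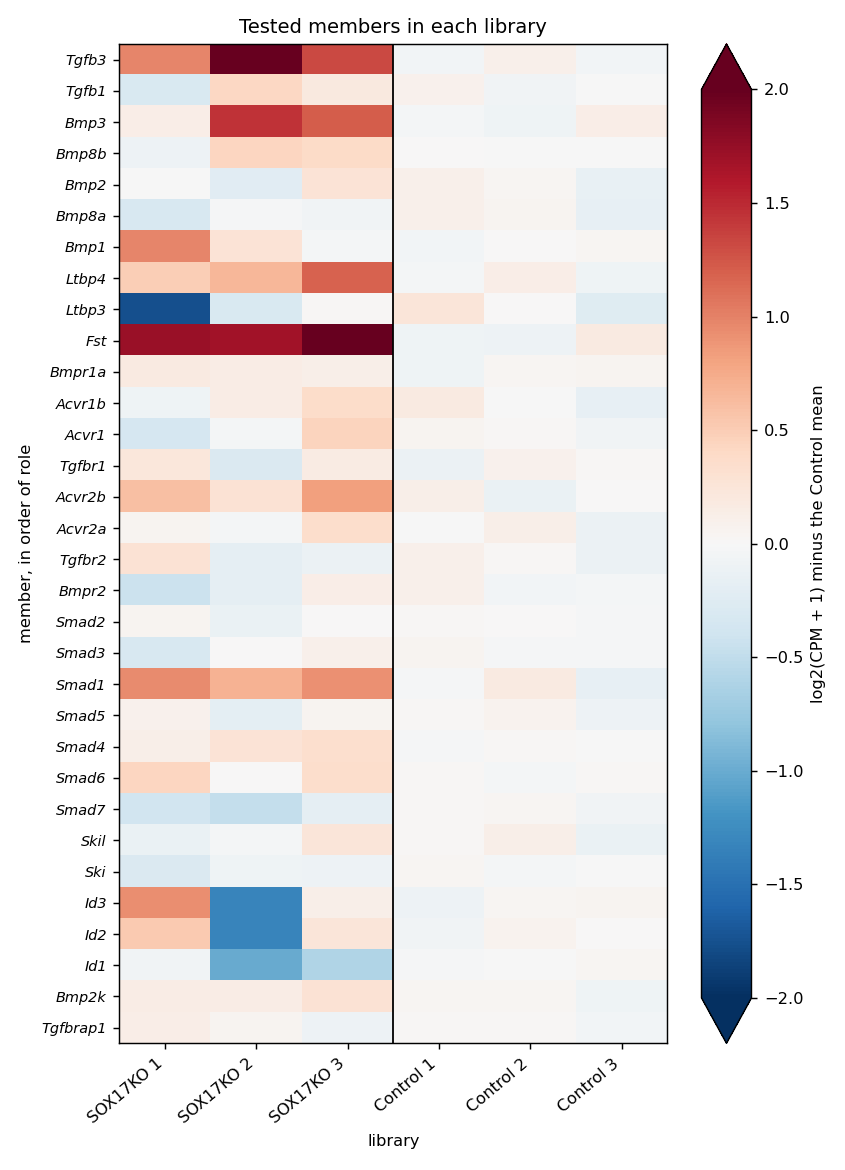
Difference of log2(CPM + 1) from the Control mean for the 32 tested members (y axis, in order of role) in each library (x axis), with red for higher and blue for lower and colours capped at 2 in size. Fst, Smad1 and Tgfb3 are red in all 3 SOX17KO libraries, Ltbp3 is dark blue in SOX17KO replicate 1 alone, and Id1, Id2 and Id3 are blue in SOX17KO replicate 2.

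Other genes of the pathway, outside the symbol rule, were read from a list of 63 regulators and ligands, of which 34 were tested. Of these 1 rose, 1 fell and 32 were not called, or 2 calls of 34 beside 6.87% over all genes, with a median over the 34 of 0.02 on the log2 scale. With SOX17KO replicate 1 left out, 5 of 35 were called higher and 4 lower, where 11.9% of all genes were called higher and 10.3% lower. Gdf11, a ligand that signals through activin receptors, was at 1.64, 0.922 and 0.942 CPM in SOX17KO and 0.253, 0.239 and 0.304 CPM in Control. All SOX17KO libraries lay above Control, with a log2 fold change of 2.12 ± 0.37 (SE; edgeR adjusted p = 0.0183). Gdf11 passed the filter only through the SOX17KO libraries, and at its Control level it would not have been tested. With a filter of at least 1 CPM in at least 3 libraries it was not tested. Smurf1, a ubiquitin ligase that marks BMP Smads and receptors for degradation, was at 83.7, 129.7 and 138 CPM in SOX17KO and 223, 205 and 208 CPM in Control. All SOX17KO libraries were below Control and its log2 fold change was -0.86 ± 0.18 (SE; edgeR adjusted p = 0.0373). Smurf1 lies within a stretch of chromosome 5, from Wbscr16 to Rpl21, in which the 170 tested genes had a median log2 fold change of -0.73 and 113 were called lower, and the part of that shift in its value was not tested. Neither gene was called without any one Control library (highest edgeR adjusted p 0.117 for Gdf11 and 0.162 for Smurf1), nor was Smurf1 without SOX17KO replicate 2 (edgeR adjusted p = 0.0639).

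Of 25 genes known as targets of TGF-beta or BMP signalling, 15 were tested, 2 rose, none fell with edgeR and 13 were not called, beside 3.67% higher and 3.2% lower over all genes. At an unadjusted edgeR p below 0.05 there were 5 higher and 0 lower, beside 10.6% and 9.74% over all genes, and DESeq2 and limma-voom called 0 lower. Their median difference on the log2 scale was 0.50, against 0.01 over all tested genes. Without SOX17KO replicate 1 the median was 0.30 and 7 were called higher, where 11.9% of all genes were called higher. The median was 0.94 when SOX17KO replicate 2 was left out. Ctgf, a matricellular protein gene that is also a target of YAP, was at 13.8, 14.2 and 24.7 CPM in SOX17KO and 1.16, 1.29 and 1.14 CPM in Control, a log2 fold change of 3.87 ± 0.28 (SE; edgeR adjusted p = 0.000791). Col4a1, a basement membrane collagen gene, was at 296, 281 and 305 CPM in SOX17KO and 154, 142 and 133 CPM in Control, a log2 fold change of 1.04 ± 0.09 (SE; edgeR adjusted p = 0.00128). For both genes every SOX17KO library lay above Control, and both were called under all 14 alternatives.

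Thbs1, whose product can activate latent TGF-beta, belongs to both lists and was at 395, 48.9 and 81.2 CPM in SOX17KO and 43.4, 42.7 and 41.0 CPM in Control (edgeR adjusted p = 0.165), with SOX17KO replicate 1 far above the others. When that library was left out, Thbs1 was called higher at 0.61 on the log2 scale (edgeR adjusted p = 0.0249). Pmepa1, a feedback inhibitor of TGF-beta signalling, was at 27.3, 5.88 and 10.3 CPM in SOX17KO and 10.3, 10.5 and 8.67 CPM in Control (edgeR adjusted p = 0.629). Pmepa1 was picked with its values known, and its SOX17KO libraries did not all fall on 1 side of Control. With SOX17KO replicate 1 left out its value was -0.29, against 0.57 with all libraries (edgeR adjusted p = 0.370 without it).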

How the data were processed

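Poly(A)-selected directional libraries were made per the labels' protocols. Per the submitters' processing notes, Bowtie, RSEM and mm9 were used; versions, annotation, filters and the use of strand were not given in the sources used here. Deposited values are expected counts, the authors' estimated reads per gene; in each library 26.6% to 30.3% of values were not whole, and all were rounded. No pair of replicates agreed within sampling noise.

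The groups were compared with edgeR 4.0.16 in R 4.3.3 (quasi-likelihood F test, TMM, filterByExpr with minimum count 10 and minimum total 15). SE was taken as the log2 fold change over the root of F, and intervals (95%) use it. CPM use TMM-adjusted totals. Reads carry no molecular identifiers, so the limits given for members without counts cover counting error only. The SE and intervals of fold changes also include the spread between libraries. Without a known strand setting, antisense overlap (Fst and Tgfb3 exons overlap predicted genes) cannot be told apart. Alternatives were other scaling and filters, DESeq2 1.42.0, limma-voom (limma 3.58.1), unrounded values, a replicate block and each library left out. On simulated counts for SOX17KO against Control (12037 genes) 19.7%, 82.1% and 95.3% of genes changed 1.5-, 2- and 4-fold were recovered, with 11 false among 140 calls. The simulated counts were drawn independently with the same spread in both groups, so none of their libraries stood apart as SOX17KO replicate 1 did. Figures used matplotlib 3.10.9.

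Members, lists and the rule for named genes (every called member, every tested Smad, Id gene and receptor, members at an unadjusted p below 0.05, up to 8 called genes per list) were chosen with earlier results of these data known. Thbs1, Pmepa1 and the marker Cd68 were picked with their values known.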

Additional observations from a re-analysis of the deposited data

How the results depend on the processing

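Fst, Ctgf and Col4a1 were called under all 14 alternatives. DESeq2 called 748 genes higher and 677 lower, including 5 members higher and 1 lower, 2 related pathway genes higher and 2 lower, and 4 target genes higher. With no filter on low counts 2 related genes were higher, and with at least 1 CPM in at least 3 libraries, where Gdf11 was not tested, 0 were. The replicate block gave 183 genes higher and 143 lower, with 0 related genes higher and 0 lower; Smad1 then had an adjusted p of 0.0623, Gdf11 0.0713 and Smurf1 0.0907, while Fst (0.0111) and Tgfb3 (0.0424) were called. Same-numbered libraries did not deviate together (correlations of deviations from the group means of -0.25, -0.07 and -0.29). These values gave no sign that the numbers pair the samples, but 3 libraries per group are too few to settle it. Leaving out 1 library gave 97 to 1453 genes higher and 94 to 1255 lower, 1 to 8 members higher and 0 to 2 lower, 0 to 5 related genes higher and 0 to 4 lower, and 2 to 7 target genes higher and 0 lower; the highest values came without SOX17KO replicate 1 and the lowest counts of members without Control replicate 1 or 3. Fst, Smad1, Tgfb3, Gdf11, Smurf1, Ctgf and Col4a1 kept their direction under each alternative that tested them. Bmp4, Inhba and Id4 had too few counts in most libraries to pass the filter with all 6, which limits what can be said of them at this depth.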
